A study of Homo sapiens with 64 samples.

Results

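FBL depletion in C4-2 cells was followed here at 12 h, the last hour of the C4-2 RNA-seq time course used here, in 2 libraries with an siRNA against FBL (siFBL) and 2 with the control siRNA (siCTRL). These 4 libraries were chosen by cell line, siRNA and hour, out of 64 libraries in the series. C4-2 is an androgen-independent human prostate cancer line of luminal type. The 2 groups differ by the siRNA alone, and the time-course libraries are of polyadenylated RNA. The other libraries used were those of C4-2 at 0, 3 and 6 h (2 for each siRNA and hour), 24 libraries of HEK293T (siFBL, siNOP56 and siCTRL, each at 0, 6, 12 and 24 h), an embryonic kidney line that carries the SV40 large T antigen, and 2 immunoprecipitations of FBL-bound RNA (RIP) with 2 inputs from siCTRL C4-2 cells. The design text gives mRNA half-life as the purpose of the hours, and the labels name no agent that stops transcription and no interval between transfection and 0 h. Nothing in the labels says whether the 2 libraries of a group came from separate cultures, so the spread between them may be technical. The p-values of the C4-2 model rest on a spread pooled over all 16 C4-2 time-course libraries. At 12 h that spread was wider between the siFBL libraries than between the siCTRL libraries.

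FBL encodes fibrillarin, the enzyme that transfers methyl groups within box C/D small nucleolar ribonucleoproteins (snoRNPs). Such a particle also holds NOP56, NOP58 and SNU13 on a guide RNA, which pairs with its target and directs a 2′-O-methyl group to a chosen ribose of ribosomal RNA. The same particles act in the processing of pre-ribosomal RNA in the nucleolus. When ribosome assembly is disturbed, free ribosomal proteins such as RPL5 and RPL11 are known to bind MDM2 and stabilise p53, whose targets include the cell cycle inhibitor CDKN1A.

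The 4 libraries at 12 h held 96.2 M and 88.6 M counts (M, mega) with siFBL and 100.8 M and 89.2 M with siCTRL. Levels are given as CPM, the count per M counts of a library after TMM scaling, for library A and then library B of each group. The prostate luminal markers were present, as the label implies. KLK3, the prostate-specific antigen, had 5284 and 3963 CPM with siFBL and 4317 and 4197 CPM with siCTRL. Other cell types left little trace: the summed level of 10 basal markers was 47.8 and 45.1 CPM with siFBL and 42.5 and 45 CPM with siCTRL, and that of 12 leukocyte markers 33.2 and 50.1 CPM with siFBL and 32.9 and 31.5 CPM with siCTRL. PTPRC, the common leukocyte antigen, had at most 0.908 CPM in the 4 libraries. The summed fibroblast markers were 1047 and 938 CPM with siFBL and 674 and 734 CPM with siCTRL, most of it FN1, while COL1A2 had 0.925 and 1.80 CPM with siFBL and 1.20 and 0.680 CPM with siCTRL. Of 10 basal, 12 neuroendocrine and 12 leukocyte markers edgeR called 0, with 3 higher at an unadjusted p under 0.05 (2 basal and 1 neuroendocrine), while limma voom called 0 and DESeq2 2 basal markers. The summed neuroendocrine markers were 53.6 and 62.2 CPM with siFBL and 64.8 and 57.6 CPM with siCTRL, and of 13 HEK293T markers NES and TBX3 were called lower. Mitochondrially encoded mRNAs were not analysed here. FN1 (fibronectin) was the 1 of 14 fibroblast markers that rose, to 973 and 866 CPM with siFBL against 599 and 660 CPM with siCTRL, a call that ended without siCTRL A (edgeR adjusted p = 0.114).

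The siFBL libraries differed more from each other than the siCTRL libraries did. Of 9037 genes that averaged 5 CPM or more at 12 h, 580 (6.42%) differed over 2-fold between siFBL A and siFBL B, and 1 (0.0111%) between siCTRL A and siCTRL B. Of the 2504 genes called lower, 2095 were lower in siFBL B than in siFBL A, against 12939 of all 23437 genes tested. Of the 640 genes called higher, 363 were higher in siFBL B. Of 43 nuclear respiratory chain genes, with 0 called, 40 were lower in siFBL B. Lower levels in siFBL B were thus not confined to genes called, and the part of scaling was not tested. The difference between A and B was not particular to 12 h. Across the genes, the log2 ratio of siFBL A to B at 12 h had a Pearson correlation of 0.68 with that at 0 h and of 0.74 with those at 3 and 6 h, against −0.06, −0.11 and 0.02 for siCTRL. FBL itself had 0.601 CPM in siFBL A and 1.75 CPM in siFBL B. What sets the libraries apart was not tested.

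At 12 h, 640 of 23437 genes tested (2.73%) rose and 2504 (10.7%) fell in siFBL cells against siCTRL cells, so that 13.4% were called in either direction (edgeR quasi-likelihood test, Benjamini-Hochberg adjusted p below 0.05). Over 2-fold changes made up 357 of the rises and 1252 of the falls. In all 3144 genes called, both siFBL libraries lay outside the range of the siCTRL libraries. The call nearly sets this separation, here and for single called genes below, so it adds no support. The median log2 difference was 0.00 over all genes tested and −0.23 over the 9037 genes with at least 5 CPM, of which 373 (4.13%) rose and 1951 (21.6%) fell. The balance of rises and falls depends on the scaling: with upper quartile factors, which put the median of all genes at 0.32, 2210 genes rose and 1434 fell. The counts depend on single libraries too. Without siFBL A 769 genes rose and 4121 fell, without siFBL B 400 and 1285, without siCTRL A 199 and 1302, and without siCTRL B 164 and 1341. With the 4 libraries at 12 h fitted alone, 383 rose and 969 fell.

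**Figure D1:**
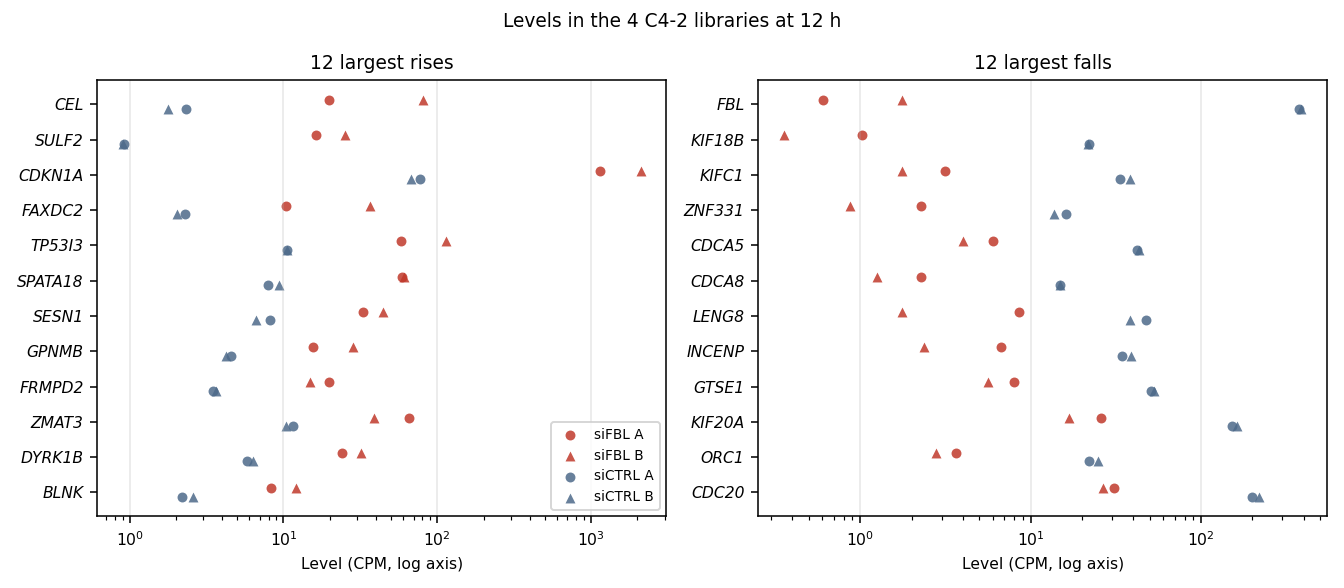
Levels (CPM, log axis) of the 12 genes with the largest rise and the 12 with the largest fall at 12 h, among genes called and averaging 5 CPM or more, in each C4-2 library (red siFBL, blue siCTRL; circles library A, triangles library B). Genes were drawn only if both siFBL libraries lay on the same side of both siCTRL libraries, so this separation is set by the choice. CDKN1A is the most abundant of the rises and FBL the largest fall.

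FBL itself was almost absent. It had 0.601 and 1.75 CPM with siFBL, or 50 and 152 counts, and 375 and 388 CPM with siCTRL, or 29984 and 27362 counts. Both siFBL libraries lay far below both siCTRL libraries, and the level was 323-fold lower (log2 −8.34 ± 0.64 SE, edgeR adjusted p = 7.1e-07). Over the hours the mean of FBL went down in siFBL cells, with 3.19, 2.03, 1.82 and 1.17 CPM at 0, 3, 6 and 12 h, while siCTRL cells had 285, 335, 354 and 381 CPM.

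Of the 3 partners of FBL in the box C/D particle, NOP58 and NOP56 fell and none rose. NOP58, a scaffold of the particle, had 123 and 87.2 CPM with siFBL and 204 and 208 CPM with siCTRL, and fell by 0.97 ± 0.17 on the log2 scale (edgeR adjusted p = 0.0012). NOP56, the other scaffold, had 131 and 79.0 CPM with siFBL and 174 and 192 CPM with siCTRL (log2 −0.80, edgeR adjusted p = 0.010). Its call ended without siFBL B (adjusted p = 0.105), without siCTRL B (0.0875) and with library totals alone (0.0505). SNU13, listed as NHP2L1, had 295 and 271 CPM with siFBL and 304 and 298 CPM with siCTRL, with no detectable difference (log2 −0.09, edgeR adjusted p = 0.709) and a sign that changed with the scaling. Of 6 H/ACA particle proteins, which guide pseudouridylation, GAR1 alone was called lower (8.57 and 8.0 CPM with siFBL, 17.6 and 14.3 CPM with siCTRL), and not without siFBL B (edgeR adjusted p = 0.121) or siCTRL A (0.161).

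Among 11 assembly factors of these particles 3 (27.3%) fell and none rose. Of all genes with at least 5 CPM 21.6% fell and 4.13% rose. TCOF1 (treacle), which links ribosomal DNA transcription to pre-ribosomal RNA modification, had 109 and 70.6 CPM with siFBL and 313 and 383 CPM with siCTRL. It was 3.86-fold lower (edgeR adjusted p = 5.9e-06), the groups were far apart, and the call held under every alternative fit. PIH1D1, of the R2TP chaperone complex, fell by 0.83 on the log2 scale. NOLC1, a nucleolar phosphoprotein, had 585 and 416 CPM with siFBL and 715 and 802 CPM with siCTRL (log2 −0.60), a call that ended without siFBL B (edgeR adjusted p = 0.151) or siCTRL B (0.133). Of 20 snoRNA host transcripts tested, 8 (40%) fell and none rose, with a median log2 difference of −0.60. SNHG1, a noncoding host of several box C/D snoRNAs, had 11.7 and 9.83 CPM with siFBL and 62.5 and 57.0 CPM with siCTRL and was 5.55-fold lower (edgeR adjusted p = 2.4e-06).

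Of 50 ribosome biogenesis factors tested, 22 (44%) fell and none rose, against 21.6% and 4.13% of all genes with at least 5 CPM, and their median log2 difference was −0.51 against −0.23. LYAR, a nucleolar factor of pre-ribosomal RNA processing, had 18.5 and 12.6 CPM with siFBL and 53.8 and 56.7 CPM with siCTRL (log2 −1.83, edgeR adjusted p = 7.4e-06), with no overlap between the groups. GLTSCR2, which binds 5S ribonucleoprotein components, had 55.2 and 55.7 CPM with siFBL and 124 and 151 CPM with siCTRL. The count of falls changed when single libraries were left out. The list median was −0.80 without siFBL A, −0.39 without siFBL B, −0.55 without siCTRL A and −0.48 without siCTRL B. Of 78 ribosomal proteins 15 (19.2%) fell and none rose, a share of falls near that of all genes with at least 5 CPM (21.6%), with a median of −0.26 that became 0.06 with upper quartile factors, under which 5 rose and 2 fell. Without siFBL A 34 fell, and without siFBL B 4, without siCTRL A 3 and without siCTRL B 3. RPL13A, host of box C/D snoRNAs in its introns, kept its fall under every alternative fit (139 and 110 CPM with siFBL, 261 and 243 CPM with siCTRL; log2 −1.01, edgeR adjusted p = 0.00019), as did RPS9 (log2 −0.75).

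The largest fall was that of the cell division programme. All 50 mitosis genes fell, with a median log2 difference of −2.42 (−2.06 in siFBL A and −2.72 in siFBL B), where 10.7% of all genes tested fell. CDCA8, borealin of the chromosomal passenger complex, had 2.28 and 1.25 CPM with siFBL and 14.9 CPM in both siCTRL libraries. INCENP, the scaffold of the same complex, had 6.69 and 2.36 CPM with siFBL and 34.6 and 38.8 CPM with siCTRL. The third leading member was AURKA, a spindle pole kinase, with 1.32 and 0.770 CPM with siFBL and 7.64 and 7.81 CPM with siCTRL. These 3 genes were 7.39-fold to 8.41-fold lower (edgeR adjusted p between 9.95e-06 and 0.00017), and in each the groups lay wide apart. Outside the list, larger falls were those of KIF18B, a kinesin that trims spindle microtubules, with 1.02 and 0.356 CPM with siFBL and 22.0 and 21.7 CPM with siCTRL (31.8-fold), and of KIFC1, a minus-end kinesin, with 3.16 and 1.75 CPM with siFBL and 33.6 and 38.4 CPM with siCTRL (14.7-fold). CDC20, a list member that activates the anaphase-promoting complex, had 31.0 and 26.7 CPM with siFBL and 200 and 219 CPM with siCTRL. The smallest fall of the list was that of BUB3, a checkpoint protein named after its value was seen, at −0.91. In bulk RNA, fewer cells in division and less of these mRNAs in each cell cannot be told apart.

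DNA replication followed. Of 52 S phase genes 51 (98.1%) fell and 1 (1.92%) rose, with a median log2 difference of −1.77. Of all genes tested 10.7% fell and 2.73% rose, and of those with at least 5 CPM 21.6% fell and 4.13% rose. ORC1, the large subunit of the origin recognition complex, had 3.65 and 2.78 CPM with siFBL and 22.0 and 25 CPM with siCTRL (log2 −2.87 ± 0.20 SE, edgeR adjusted p = 3.8e-07). MCM10, which loads at origins as they fire, had 6.70 and 3.53 CPM with siFBL and 31.1 and 37.3 CPM with siCTRL, and E2F2, an activating E2F, 0.589 and 0.460 CPM with siFBL and 4.63 and 4.10 CPM with siCTRL. The exception was CCNE1, cyclin E1, which drives entry into S phase. It had 7.20 and 8.36 CPM with siFBL and 2.60 and 3.23 CPM with siCTRL (log2 1.42, edgeR adjusted p = 0.0067), above both siCTRL libraries in each siFBL library, though its call ended without siCTRL A (adjusted p = 0.0834) and with limma voom (0.0525). At 0 h its difference was 0.06.

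Of 33 genes of homologous recombination and crosslink repair, 25 (75.8%) fell and none rose, with a median of −1.69. Of all genes with at least 5 CPM 21.6% fell and 4.13% rose. XRCC2, a factor of strand exchange in recombination, had 0.949 and 0.506 CPM with siFBL and 5.56 and 6.28 CPM with siCTRL. BRCA1 had 14.9 and 5.33 CPM with siFBL and 62.1 and 66.6 CPM with siCTRL, and EXO1, a resecting nuclease, 3.64 and 1.90 CPM with siFBL and 17.4 and 17.7 CPM with siCTRL. The 3 genes were 6.34-fold to 8.14-fold lower with no overlap between the groups. ATM, the damage kinase, likewise named after its value was seen, showed no detectable difference in this list (log2 −0.13, edgeR adjusted p = 0.68). Of 27 regulators that put the cell cycle under the RB and E2F proteins 13 (48.1%) fell and 1 (3.70%) rose. MYBL2, a partner of the MuvB core, was among the most abundant, with 123 and 250 CPM with siFBL and 1081 and 1230 CPM with siCTRL (log2 −2.63, edgeR adjusted p = 5.1e-05). CDKN2C, an inhibitor of CDK4 and CDK6, fell by 1.90 on the log2 scale. The 1 that rose, the cyclin CCND2, stayed near the detection limit, at 0.805 and 1.01 CPM with siFBL and 0.150 and 0.0283 CPM with siCTRL, and was not called without siFBL B (edgeR adjusted p = 0.11) or siCTRL B (0.214). Replication-dependent histones changed less than the S phase genes: 4 of 27 (14.8%) fell and 1 (3.70%) rose. Of all genes tested 10.7% fell and 2.73% rose. Their mRNAs normally lack a poly(A) tail, so libraries of polyadenylated RNA show them only in part.

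**Figure D2:**
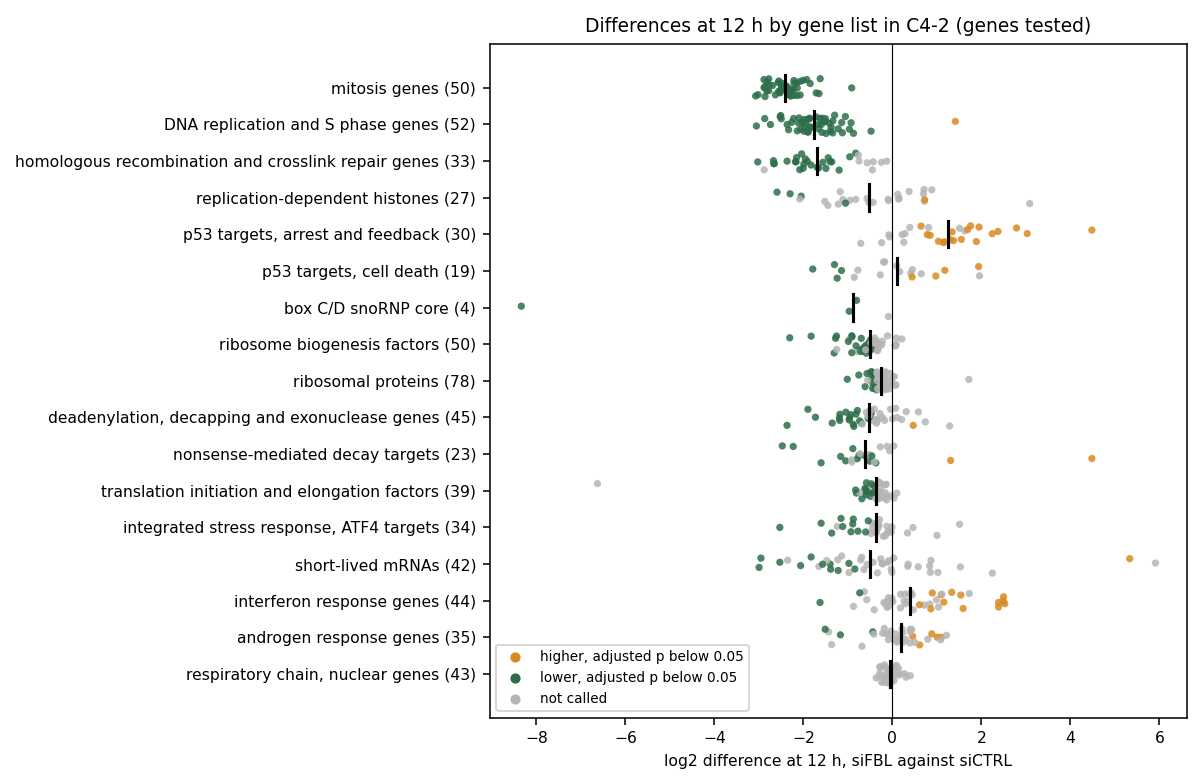
Differences at 12 h (log2, siFBL against siCTRL) of each tested gene of the main lists in C4-2, with the number tested in brackets; each point is a gene, orange called higher, green called lower, grey not called, and black bars are list medians. The mitosis, S phase and recombination lists lie left of 0 with medians of −2.42, −1.77 and −1.69, the p53 arrest list right of 0 with a median of 1.24, and the ribosomal protein list close to 0.

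Promoters of 1 gene each from the mitosis, S phase and p53 arrest lists are shown with short words that transcription factors are known to bind. The words marked were chosen separately for each gene, so the capitals are not a comparison between them. They are 250 bases ending at the base before the annotated start (RefSeq, GRCh38.p14), with matches in capitals. In CDCA8 (chr1:37692266-37692515, plus strand) the capitals mark the cell cycle homology region (CHR, TTTGAA or TTCGAA) and the CCAAT box, which reads ATTGG on the other strand. In E2F2 (chr1:23531234-23531483, minus strand) they mark an E2F word (TTTCCCGC, TTTCGCGC, TTTGCCGC or TTTGGCGC). In CDKN1A (chr6:36678464-36678713, plus strand) they mark the GC box (GGGCGG) as printed on this strand.
CDCA8: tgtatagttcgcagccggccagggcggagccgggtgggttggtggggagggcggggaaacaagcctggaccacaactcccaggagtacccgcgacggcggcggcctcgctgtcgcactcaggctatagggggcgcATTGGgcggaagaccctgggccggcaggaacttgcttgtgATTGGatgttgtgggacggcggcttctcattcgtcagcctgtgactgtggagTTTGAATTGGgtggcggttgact
E2F2: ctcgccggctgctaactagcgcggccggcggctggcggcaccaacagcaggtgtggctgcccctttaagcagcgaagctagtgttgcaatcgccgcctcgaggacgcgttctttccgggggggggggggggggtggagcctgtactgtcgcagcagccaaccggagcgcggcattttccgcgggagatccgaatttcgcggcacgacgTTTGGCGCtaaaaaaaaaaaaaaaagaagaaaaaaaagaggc
CDKN1A: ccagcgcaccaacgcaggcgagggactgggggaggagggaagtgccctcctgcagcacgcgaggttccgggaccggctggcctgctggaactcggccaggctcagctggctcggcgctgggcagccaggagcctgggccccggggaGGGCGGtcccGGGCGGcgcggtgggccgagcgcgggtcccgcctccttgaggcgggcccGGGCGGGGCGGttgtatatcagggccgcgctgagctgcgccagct
In CDCA8 the CHR lies 23 to 18 bases before the start and shares 1 base with the CCAAT box at 18 to 14, with further CCAAT boxes at 75 and 115. CDCA8 also holds GC boxes, left in lower case, that begin 229, 202 and 112 bases before the start. The E2F word of E2F2 lies 42 to 35 bases before its start. CDKN1A holds 4 GC boxes within 104 bases, of which the last 2 share a base. Searched on both strands, a CHR was found in 24 of 44 mitosis promoters in the table (54.5%), against 12.0% of 15654 promoters of genes tested. A CCAAT box was found in 79.5% of mitosis promoters and 34.2% of all. An E2F word was found in 15 of 43 S phase promoters (34.9%) against 3.47% of all, and a GC box in 83.3% of 24 p53 arrest promoters against 54.4%. Of the 1894 promoters of all genes that fell, 11.8% held a CHR, 41.2% a CCAAT box, 5.76% an E2F word and 68.5% a GC box. A GC box was also found in 75% of mitosis promoters, 69.8% of S phase promoters and 59.5% of those of all genes that rose. These are matches of letters and not sites shown to be bound.

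Targets of p53 that arrest the cycle or feed back on it made up the main group that rose. Of 30 tested, 19 rose and none fell, with a median log2 difference of 1.24, where 2.73% of all genes tested rose. CDKN1A, the p21 inhibitor of cyclin-dependent kinases, had 1135 and 2093 CPM with siFBL and 77.3 and 67.2 CPM with siCTRL. The siFBL libraries differed among themselves by almost 2-fold and yet both stood far above siCTRL, at 22.3-fold (log2 4.48 ± 0.57 SE, edgeR adjusted p = 6.97e-05). TP53I3, a quinone oxidoreductase, had 58.0 and 114 CPM with siFBL and 10.5 CPM in both siCTRL libraries (8.16-fold), and SPATA18, a mitochondrial quality factor, 59.0 and 61.2 CPM with siFBL and 7.98 and 9.40 CPM with siCTRL (6.92-fold). SESN1, a sestrin that restrains mTORC1, and ZMAT3, an RNA-binding p53 target, were also among the 12 largest rises, at 5.18-fold and 4.74-fold. Fewer were called higher with either siCTRL library left out, while the list median was 1.28 without siCTRL A and 1.18 without siCTRL B. Of 19 p53 targets in cell death, 4 (21.1%) rose and 4 (21.1%) fell, with a median of 0.10. Of all genes with at least 5 CPM 4.13% rose and 21.6% fell. FAS, a death receptor, had 8.76 and 6.71 CPM with siFBL and 2.05 and 1.98 CPM with siCTRL, and TNFRSF10D, a decoy receptor of TRAIL, 224 and 167 CPM with siFBL and 86.3 and 86.8 CPM with siCTRL. BAX rose by 0.98, a call that ended without siFBL B (edgeR adjusted p = 0.257), siCTRL A (0.114) or siCTRL B (0.167). BCL2L11, a BH3-only protein known as BIM, went the other way, with 1.27 and 1.18 CPM with siFBL and 4.39 and 4.11 CPM with siCTRL (log2 −1.79, edgeR adjusted p = 0.00082).

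Other genes with large rises are less tied to one pathway. SULF2, an extracellular heparan sulfatase, had 16.2 and 25.2 CPM with siFBL and 0.913 and 0.907 CPM with siCTRL (22.7-fold, edgeR adjusted p = 1.1e-05). CEL, a bile salt lipase, had 19.7 and 81.1 CPM with siFBL and 2.31 and 1.79 CPM with siCTRL. Its log2 difference was 3.26 without siFBL B and 4.44 without siCTRL B, and its call ended in both fits. DYRK1B, a kinase of quiescent cells, had 23.9 and 31.8 CPM with siFBL and 5.8 and 6.36 CPM with siCTRL (4.58-fold). GPNMB, a membrane glycoprotein of lysosomal stress, was 5.01-fold and BLNK, an adaptor of B cell receptor signalling, 4.28-fold higher. FAXDC2 had 10.4 and 36.7 CPM with siFBL and 2.29 and 2.04 CPM with siCTRL, a call that ended without siFBL B (edgeR adjusted p = 0.16), siCTRL A (0.0889) or siCTRL B (0.105).

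Of 20 luminal markers 2 (10%) rose and 1 (5%) fell, and of 35 androgen response genes 5 (14.3%) rose and 3 (8.57%) fell, with a median of 0.19, where 2.73% of all genes tested rose and 10.7% fell. TMPRSS2, an androgen-responsive membrane protease, had 252 and 214 CPM with siFBL and 104 and 112 CPM with siCTRL (log2 1.10, edgeR adjusted p = 6.0e-05) and kept its call under every alternative fit. KLK4 rose by 1.01, not called without siFBL B (edgeR adjusted p = 0.134), siCTRL A (0.0526) or siCTRL B (0.101). KCNN2 rose by 0.89, not called without siFBL A (edgeR adjusted p = 0.0586), siCTRL A (0.0837) or siCTRL B (0.0505). KLK2, a kallikrein, had 735 and 572 CPM with siFBL and 909 and 864 CPM with siCTRL (log2 −0.44), and its call ended without siFBL B (edgeR adjusted p = 0.203), siCTRL A (0.16) or siCTRL B (0.0938). MPHOSPH9 and SLC16A6 fell by 1.17 and 1.51.

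Of 34 genes of the integrated stress response 11 (32.4%) fell and none rose (median −0.37), where 21.6% of all genes with at least 5 CPM fell and 4.13% rose. ATF4, its central transcription factor, had 134 and 108 CPM with siFBL and 377 and 358 CPM with siCTRL, 3.03-fold lower with the groups far apart (edgeR adjusted p = 1.4e-06). Of 22 genes of the unfolded protein response 5 (22.7%) fell and 1 (4.55%) rose, both near the shares of all genes with at least 5 CPM: DNAJB9, a chaperone of the endoplasmic reticulum, had 6.81 and 5.54 CPM with siFBL and 3.01 and 2.54 CPM with siCTRL, while MANF, a secreted survival factor, had 314 and 258 CPM with siFBL and 478 and 451 CPM with siCTRL. Of 18 heat shock genes 7 (38.9%) fell and none rose. HSP90AA1 had 4641 and 3141 CPM with siFBL and 6340 and 6487 CPM with siCTRL (log2 −0.72), not called without siFBL B (edgeR adjusted p = 0.144), siCTRL A (0.0566) or siCTRL B (0.0689).

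Among metabolic genes, 1 of 24 cholesterol genes (4.17%) rose and 6 (25%) fell. These shares lie near those of all genes with at least 5 CPM, of which 4.13% rose and 21.6% fell. The riser was TM7SF2, a sterol reductase, with 385 and 584 CPM with siFBL and 154 and 156 CPM with siCTRL (log2 1.64, edgeR adjusted p = 0.0024), and EBP, a sterol isomerase, had 88.2 and 65.4 CPM with siFBL and 193 and 191 CPM with siCTRL (log2 −1.32). Of 21 glycolysis genes 6 (28.6%) fell and none rose, PFKFB3 the most, by 1.48. Of 43 nuclear genes of the respiratory chain edgeR called 0, with 2 higher and 3 lower at an unadjusted p under 0.05, while limma voom called 0 and DESeq2 1. With upper quartile factors 12 of them rose. The medians of these 3 lists lay between −0.15 and −0.06 and turned positive with upper quartile factors, library totals alone or scaling to ribosomal proteins.

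Of 44 interferon response genes 13 (29.5%) rose and 2 (4.55%) fell, with a median of 0.40, where 2.73% and 10.7% of all genes tested did. Many had low levels. CXCL10, a chemokine, had 0.961 and 0.724 CPM with siFBL and 0.163 and 0.128 CPM with siCTRL. BST2 (tetherin) had 3.63 and 10.7 CPM with siFBL and 0.900 and 1.64 CPM with siCTRL, and IFI27 1.59 and 3.33 CPM with siFBL and 0.263 and 0.609 CPM with siCTRL. These 3 calls ended when single libraries were left out, which also lowers the power of the test. Without siFBL B the log2 difference was 1.52 for BST2 and 1.87 for IFI27. Without siCTRL A it was 2.12 for BST2, 2.01 for IFI27 and 2.71 for CXCL10. Without siCTRL B it was 2.98 for BST2 and 2.36 for CXCL10. OAS3, an oligoadenylate synthetase, went down and kept its call throughout, with 37.4 and 19.5 CPM with siFBL and 87.5 and 88.0 CPM with siCTRL. Of 29 NF-kB and cytokine genes 1 rose and 2 fell, all below 1 CPM.

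Of 45 deadenylation, decapping and exonuclease genes 21 (46.7%) fell and 1 rose (median −0.51), where 21.6% of all genes with at least 5 CPM fell, with a median of −0.23. PNRC2, which bridges UPF1 and the decapping complex, had 1.44 and 1.23 CPM with siFBL and 6.56 and 7.23 CPM with siCTRL, 5.16-fold lower (edgeR adjusted p = 6.2e-06). TOB2, which brings the CCR4-NOT deadenylase to mRNAs, had 0.889 and 1.31 CPM with siFBL and 4.56 and 3.64 CPM with siCTRL, and LSM6, of the ring that binds deadenylated ends, 3.56 and 1.84 CPM with siFBL and 9.46 and 8.40 CPM with siCTRL. In all 3 the groups did not overlap. CNOT11 rose by 0.47, a call lost without siCTRL A (edgeR adjusted p = 0.12) or siCTRL B (0.17). Of 17 factors of nonsense-mediated decay 7 (41.2%) fell and none rose, among them SMG9 (3.95 and 4.07 CPM with siFBL, 9.26 and 12.0 CPM with siCTRL; log2 −1.41). Of 23 known targets of that decay 12 (52.2%) fell and 2 rose, and the list had a median of −0.61. Of 39 translation factors 13 (33.3%) fell and none rose. Of 30 RNA methylation factors 5 (16.7%) fell and none rose, a share of falls under that of all genes with at least 5 CPM. EIF4EBP1, a repressor of cap binding, was the leading translation gene, with 380 and 321 CPM with siFBL and 611 and 632 CPM with siCTRL, and RBM15, an adaptor of the m6A writer, the leading methylation gene, at 0.577 and 0.448 CPM with siFBL and 1.88 and 1.59 CPM with siCTRL.

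Most of the difference at 12 h was present at 0 h. At 0 h 1988 genes were called. At both hours 1485 were called, which is 47.2% of the calls at 12 h and 74.7% of those at 0 h. Of these, 1483 had the same sign. The contrasts at 0 h and 12 h share no library, but they share 1 estimate of the spread. The siFBL A to B ratios at these hours also had a correlation of 0.68, so the contrasts are not independent. Of the 1659 genes called at 12 h alone, 1558 had the same sign at 0 h. The mitosis list had a median of −2.42 at 12 h and −2.07 at 0 h, the S phase list −1.77 and −1.69, and the p53 arrest list 1.24 and 1.36. The test of the difference between hours, in a model that does not pair libraries over the hours, called 0 of 23437 genes (0%), with the lowest edgeR adjusted p at 0.103. At an unadjusted p under 0.05 there were 780 genes lower and 385 higher at 12 h than at 0 h. DESeq2 called 74, limma voom none, and edgeR 85 without siFBL A at 12 h and none without siFBL B at 12 h. With 1 siFBL replicate left out at all hours, edgeR called 1982 without siFBL A and 1496 without siFBL B. With the replicate number as a block within each siRNA, a fit chosen after the data were seen, it called 194 (33 higher and 161 lower), and the labels do not say whether the number pairs the libraries. The count of 0 thus depends on the fit, including its software, scaling, filter and handling of replicates.

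A smaller set of genes was lower at 12 h without much of a difference at 0 h. Of 782 genes with at least 5 CPM that fell over 2-fold at 12 h, 433 were over 2-fold lower at 0 h too, and 102 lay above −0.5. The 433 and the 102 were picked by their values and are a description. PNRC2, the leading fall of the decay list, averaged under 5 CPM at 12 h and lies outside these counts. Its mean level was 14.7, 6.77, 3.73 and 1.34 CPM at 0, 3, 6 and 12 h in siFBL cells and 17.8, 14.1, 10.9 and 6.90 CPM in siCTRL cells, so that both courses went down and the siFBL course faster. The difference was −0.27 at 0 h and −2.37 at 12 h. ATF4 showed −0.65 at 0 h and −1.60 at 12 h, and so lies outside the 102. Neither change was called in the model without pairing. Of the 42 short-lived mRNAs 11 (26.2%) fell and 1 (2.38%) rose at 12 h, and the list median was −0.02 at 0 h and −0.50 at 12 h. Of all genes tested 10.7% fell and 2.73% rose, and of those with at least 5 CPM 21.6% fell and 4.13% rose. ZFP36, which binds AU-rich elements, had 0.409 and 0.333 CPM with siFBL and 3.64 and 2.11 CPM with siCTRL, with a difference of −0.09 at 0 h and −2.95 at 12 h. FOS, the 1 that rose, had 22 and 32 counts with siFBL and 1 and 0 counts with siCTRL, and was not called without siFBL B (edgeR adjusted p = 0.0528), siCTRL A (0.0586) or siCTRL B (0.12). LENG8 and ZNF331, large falls outside these lists, also differed less at 0 h than at 12 h. LENG8 had 8.52 and 1.76 CPM with siFBL and 47.5 and 38.3 CPM with siCTRL at 12 h. ZNF331 had 2.28 and 0.874 CPM with siFBL and 16 and 13.7 CPM with siCTRL at 12 h. Their differences were −0.33 and −0.76 at 0 h and −3.06 and −3.24 at 12 h, so ZNF331 lies outside the 102.

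The p53 arrest list as a whole kept its median, at 1.24 at 12 h and 1.36 at 0 h, while single members differed. MDM2, BTG2, MYC and TOB1 were named after their values were seen, and their change between hours is a description. MDM2, the ubiquitin ligase of p53, had 229 and 350 CPM with siFBL and 94.9 and 77.6 CPM with siCTRL at 0 h, and 23.5 and 9.57 CPM with siFBL and 18.6 and 16.4 CPM with siCTRL at 12 h. BTG2, an antiproliferative p53 target, had 138 and 149 CPM with siFBL and 26.6 and 24.9 CPM with siCTRL at 0 h, and 0.625 and 0.172 CPM with siFBL and 0.525 and 0.780 CPM with siCTRL at 12 h. Both groups overlapped at 12 h and not at 0 h, and the log2 difference was 1.75 at 0 h and −0.08 at 12 h for MDM2 and 2.48 and −0.71 for BTG2. MYC, a short-lived mRNA, had 364 and 368 CPM with siFBL and 367 and 366 CPM with siCTRL at 0 h. At 12 h it had 1.49 and 0.621 CPM with siFBL and 2.56 and 2.95 CPM with siCTRL, a fall of 1.39 (edgeR adjusted p = 0.027). TOB1, the relative of TOB2, had 181 and 246 CPM with siFBL and 163 and 165 CPM with siCTRL at 0 h, and 1.69 and 1.95 CPM with siFBL and 3.48 and 3.68 CPM with siCTRL at 12 h. The levels of these 4 mRNAs at 12 h were thus a small part of those at 0 h with either siRNA, while CDKN1A stayed high in siFBL cells at all hours.

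**Figure D3:**
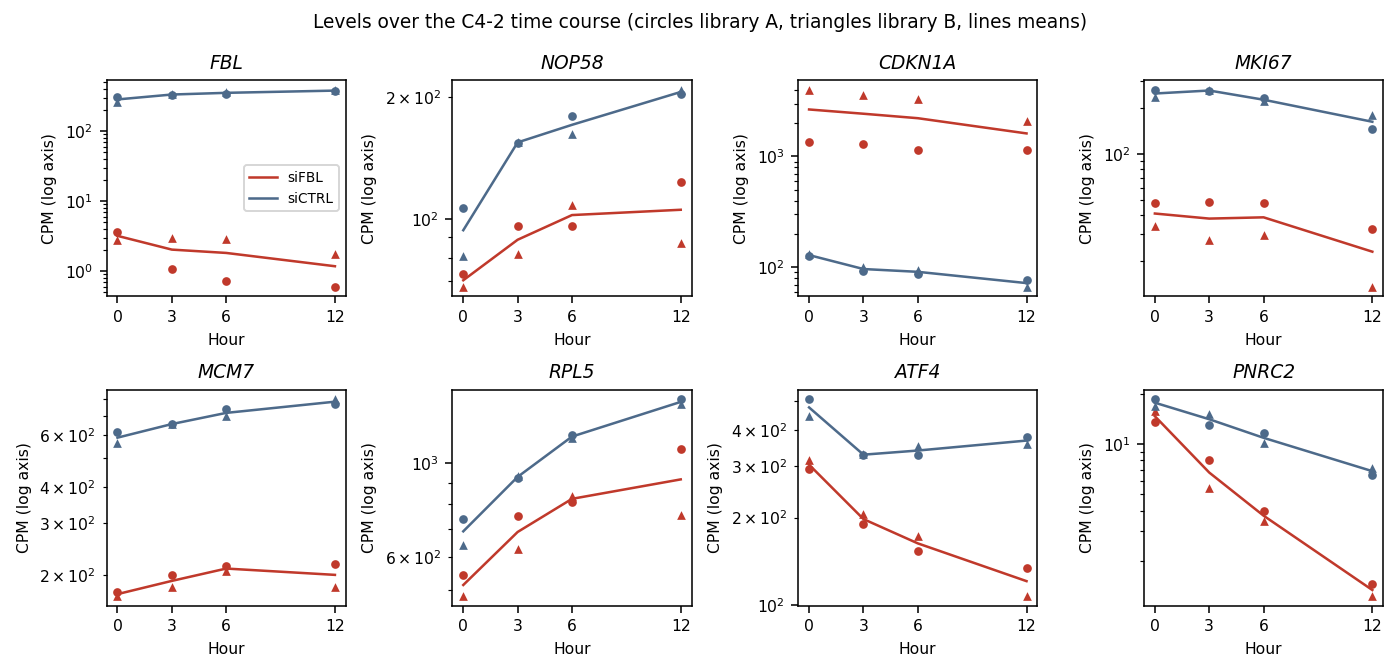
Levels (CPM, log axis) of 8 genes at 0, 3, 6 and 12 h in C4-2 with siFBL (red) and siCTRL (blue); circles are library A, triangles library B and lines group means. FBL, CDKN1A, MKI67 and MCM7 keep a wide gap at all 4 hours, while the siFBL and siCTRL courses of PNRC2 and ATF4 move apart, to 1.34 and 6.90 CPM for PNRC2 at 12 h.

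**Figure D4:**
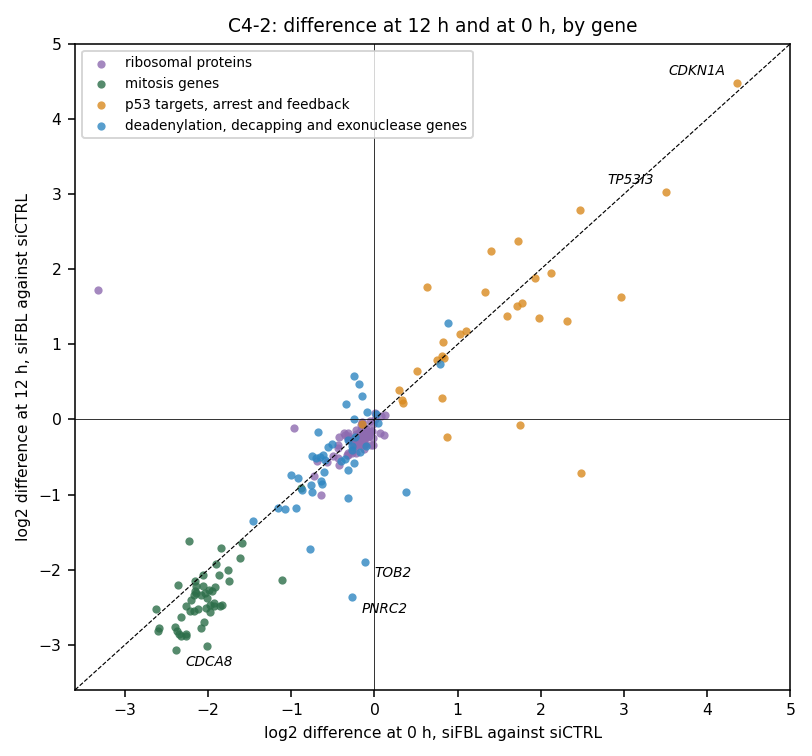
Difference at 12 h against the difference at 0 h (log2, siFBL against siCTRL) for genes of 4 lists in C4-2; the dashed line marks equal values. Mitosis genes lie in the lower left near the line and CDKN1A in the upper right, while PNRC2 and TOB2 lie well under it, with differences of −0.27 and −0.12 at 0 h and −2.37 and −1.90 at 12 h.

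Binding of FBL to mRNAs was set beside the difference at 12 h. Of 14967 genes tested in the RIP libraries, 3303 (22.1%) were enriched over input by more than 2-fold (edgeR adjusted p below 0.05). Of 3274 enriched genes also tested at 12 h, 682 (20.8%) fell and 95 rose, with a median log2 difference of −0.27. Of 11651 genes that were not enriched, 1808 (15.5%) fell and 411 rose, with a median of −0.18. At 0 h the medians were −0.28 and −0.18. The difference between the classes was not tested. Transcript length went with small differences only: over 8500 protein-coding genes with at least 5 CPM, the median difference was −0.20, −0.22, −0.26 and −0.24 from the shortest to the longest quartile. Within siFBL B the medians were −0.31, −0.34, −0.40 and −0.44, and within siFBL A −0.09, −0.11, −0.10 and −0.08.

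The same knockdown at the same hour was fitted jointly in both lines. FBL had 0.661 and 2.19 CPM with siFBL and 374 and 385 CPM with siCTRL in C4-2, against 7.92 and 15.4 CPM with siFBL and 473 and 453 CPM with siCTRL in HEK293T. The log2 difference was −8.06 in C4-2 and −5.31 in HEK293T, so the depletion was deeper in C4-2 by 2.76 on the log2 scale (edgeR adjusted p = 0.0061), and its part in the differences between the lines was not tested. Over the genes in both lines, the HEK293T libraries at 12 h held 18.7 M and 19.1 M counts with siFBL and 17.5 M and 17.9 M with siCTRL. Those of C4-2 held 95.6 M and 88.1 M with siFBL and 100.2 M and 88.7 M with siCTRL. Counts of calls therefore do not compare the lines. In the fit of 17634 genes, 1018 (5.77%) rose and 554 (3.14%) fell in HEK293T siFBL cells. The siFBL difference was higher in C4-2 than in HEK293T for 1105 genes (6.27%) and lower for 1485 (8.42%). Without siFBL B of C4-2 the higher ones numbered 507, without siCTRL A 566 and without siCTRL B 531. In this fit the median of all genes was 0.13 in C4-2 and 0.00 in HEK293T, so shifts of that size carry no weight. The 50 mitosis genes had a median of −2.22 in C4-2 and −0.02 in HEK293T, and the difference between the lines was called for 49 of them. CDC20 had 34.1 and 33.4 CPM with siFBL and 199 and 218 CPM with siCTRL in C4-2, against 185 and 244 CPM with siFBL and 107 and 93.2 CPM with siCTRL in HEK293T, so the lines moved in opposite directions. The S phase list had medians of −1.52 in C4-2 and −0.13 in HEK293T (42 of 52 lower in C4-2) and the recombination list −1.46 and 0.03 (22 of 33). Of 29 p53 arrest targets 16 had a higher difference in C4-2, with medians of 1.54 in C4-2 and 0.23 in HEK293T.

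Ribosome biogenesis factors had a median of −0.27 in C4-2 and 0.54 in HEK293T, with 16 of 50 higher and 2 lower in HEK293T siFBL cells and 22 called lower in C4-2 than in HEK293T. Ribosomal proteins had medians of −0.03 in C4-2 and −0.32 in HEK293T, where 24 of 78 fell and 1 rose. The decay genes had medians of −0.27 in C4-2 and 0.28 in HEK293T. Among genes with at least 5 CPM in all 4 groups, a rule set after values were seen, the leading differences were those of CDKN1A, SESN1, SPATA18, PANX2, TP53I3 and TM7SF2 on the side of C4-2. On the other side were IFRD1, CDC20, PLK1, SNHG1, LYAR and KIAA1524. CDKN1A had 1250 and 2622 CPM with siFBL and 77.1 and 66.7 CPM with siCTRL in C4-2 in the joint scaling, against 60.5 and 72.1 CPM with siFBL and 34.8 and 25.4 CPM with siCTRL in HEK293T. IFRD1, a transcriptional coregulator, had 9.22 and 9.78 CPM with siFBL and 13.1 and 12.2 CPM with siCTRL in C4-2, against 116.5 and 172 CPM with siFBL and 10.4 and 10.6 CPM with siCTRL in HEK293T, where both siFBL libraries stood far above siCTRL. Some genes with large fitted differences had few or no counts in 1 line, which then gives no measure of change. PSMD5 had no count with siFBL and 6 and 2 counts with siCTRL in HEK293T. HOXA9, a marker of HEK293T, had 0 and 2 counts with siFBL and 25 and 8 counts with siCTRL in C4-2. The lines were counted separately, and whether expression or counting sets these low values was not tested.

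**Figure D5:**
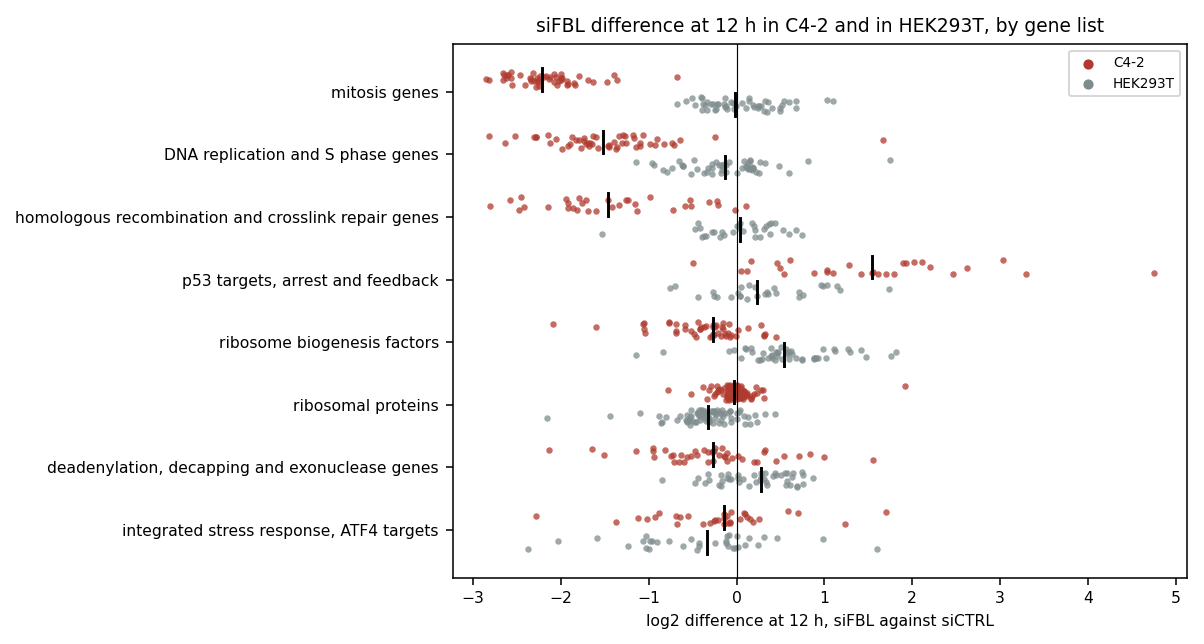
Differences at 12 h (log2, siFBL against siCTRL) in C4-2 (red) and HEK293T (grey) from the joint fit, by gene list; each point is a gene and black bars are medians. The mitosis genes lie around −2.22 in C4-2 and around −0.02 in HEK293T, and ribosome biogenesis factors around −0.27 and 0.54.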

How the data were processed

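The deposited tables hold whole-number read counts per gene, made by the authors. For the time course no aligner, counter, strand setting or genome build is stated, and for the immunoprecipitation the submitters' processing notes name TopHat2 2.1.1 and HOMER. Near-identical copies and genes that overlap on opposite strands are therefore uncertain. The C4-2 columns name group and hour but no single labelled sample, so the libraries of a group are called A and B. Counts were fitted in R 4.3.3 with edgeR 4.0.16 (TMM scaling, filterByExpr, quasi-likelihood test) over the 16 C4-2 libraries with 8 group means, with Benjamini-Hochberg adjustment over all genes tested at 0.05. HEK293T entered a joint model of both lines, and the immunoprecipitation a model of its own. DESeq2 1.42.0 and limma 3.58.1 (voom) were alternatives, as were other scalings, filters, left-out libraries and, added after the data were seen, a replicate block. Named genes were the 12 largest called rises and falls at a mean of at least 5 CPM. For these, both siFBL libraries had to lie on the same side of both siCTRL libraries. Also named were up to 3 called members of each list per direction, all markers, and the 5 largest differences between lines in each direction. The knockdown, the gene lists and the rule for names were chosen with earlier results of these data known.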

Additional observations from a re-analysis of the deposited data

Results flagged for a closer look

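The siFBL effect at 12 h differed between C4-2 and HEK293T by the test of the difference itself for each gene listed here (edgeR joint model, Benjamini-Hochberg adjusted p), and no cause was tested. Values are the log2 effect in C4-2 minus that in HEK293T, with mean CPM of siFBL and then siCTRL. CDKN1A differed by 3.61 (adjusted p = 0.0017), with 1936 and 71.9 CPM in C4-2 and 66.3 and 30.1 CPM in HEK293T. Further p53 targets on the same side were SESN1 at 3.33, SPATA18 at 2.67 and TP53I3 at 2.59. PANX2 differed by 2.64, with 86.2 and 36.2 CPM in C4-2 and 10.6 and 27.6 CPM in HEK293T, and TM7SF2 by 2.50. CCDC181 differed by 5.16 (adjusted p = 0.0026), at 0.90 and 0.067 CPM in C4-2 and 5.46 and 15.1 CPM in HEK293T, so its size rests on very few counts in C4-2.

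On the other side KIF18B differed by −4.30 (adjusted p = 1.4e-07), with 0.79 and 21.8 CPM in C4-2 and 73.0 and 102 CPM in HEK293T. CDC20 differed by −3.73 and PLK1, a mitotic kinase, by −3.68, with PLK1 at 11.2 and 70.2 CPM in C4-2 and 144 and 70.6 CPM in HEK293T. IFRD1 differed by −4.19 (adjusted p = 2.2e-06). SNHG1 differed by −3.19, LYAR by −2.87 and KIAA1524, an inhibitor of protein phosphatase PP2A, by −2.86. FBL itself differed by −2.76 (adjusted p = 0.0061), with the deeper depletion in C4-2.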

How the results depend on the processing

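The call of 72 of 124 named results held in every alternative, and no named call changed direction. The mitosis list kept 49 or 50 falls in all of them. The size of both directions depends on scaling: 776 genes rose and 2222 fell with relative log size factors, 2210 and 1434 with upper quartile factors, 1651 and 1667 with library totals alone, 1801 and 1516 with scaling to ribosomal proteins, 1628 and 2074 with a mean of at least 1 CPM, 1291 and 2647 with DESeq2, 401 and 2376 with limma voom, and 383 and 969 (1352 in all) with the 12 h libraries alone. The median of all genes was 0.32 with upper quartile factors, 0.21 with totals and 0.26 with scaling to ribosomal proteins.

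The test of 12 h against 0 h, with 0 genes called, gave 5 calls with upper quartile factors (1 higher, 4 lower), 13 with library totals (2 and 11), 3 with scaling to ribosomal proteins (1 and 2), 24 with at least 1 CPM (4 and 20), 74 with DESeq2 (28 and 46) and 5, all lower, with the 0 and 12 h libraries alone. Between the lines the 12 h libraries alone gave 1234 calls, 514 higher and 720 lower. The cause was not tested.

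The S phase median was −1.44 with upper quartile factors and −1.50 with scaling to ribosomal proteins, and that of recombination genes −1.38 and −1.44. No S phase gene rose with voom, against 1 in edgeR. The p53 arrest median was 1.3 with size factors, 1.56 with upper quartile factors, 1.46 with totals, 1.51 with scaling to ribosomal proteins, 1.45 with at least 1 CPM, 1.3 with DESeq2, 1.16 with voom and 1.35 with the 12 h libraries alone. Ribosomal proteins that fell numbered 9 with size factors, 2 with upper quartile factors, 6 with totals, 4 with scaling to ribosomal proteins, 8 with at least 1 CPM, 7 with DESeq2, 28 with voom and 3 with the 12 h libraries alone. Those that rose numbered 5, 2, 5 and 2 with upper quartile factors, totals, scaling to ribosomal proteins and at least 1 CPM, where the medians were 0.0572, −0.0506, −0.0056 and −0.0661. Ribosome biogenesis factors that fell numbered 13 with upper quartile factors and 13 with scaling to ribosomal proteins, and 4 with the 12 h libraries alone. With upper quartile factors 3 rose and the median was −0.19, and 1 rose with totals, with scaling to ribosomal proteins and with at least 1 CPM.

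Leaving out 1 library, with the lone sample of its group assumed to vary like the others, or 1 siFBL replicate at all hours, which leaves the spread to the siCTRL pairs, gave 1501 to 8424 calls at 12 h, 164 to 1928 higher and 1285 to 6496 lower. For 12 h against 0 h the range was 0 to 1982 calls, 0 to 1108 higher and 0 to 1805 lower, and between the lines 1529 to 3078, 507 to 1004 higher and 1022 to 2074 lower. Ribosomal proteins that fell ranged from 3 to 66 and those that rose from 0 to 1, with medians of −0.38 to −0.14. Ribosome biogenesis factors that fell ranged from 7 to 44 and those that rose from 0 to 3, with medians of −0.81 to −0.37. Mitosis medians ranged from −2.82 to −2.06, S phase medians from −1.91 to −1.56 with 0 to 1 higher, and recombination medians from −1.94 to −1.52. In the p53 arrest list 10 to 23 rose and 0 to 3 fell, with medians of 1.11 to 1.28.

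Medians near 0 changed sign. With upper quartile factors, totals, scaling to ribosomal proteins and at least 1 CPM the cholesterol median was 0.16, 0.0588, 0.103 and 0.0234, that of glycolysis 0.24, 0.13, 0.17 and 0.11, that of the respiratory chain 0.24, 0.14, 0.19 and 0.13, and the log2 difference of NHP2L1 0.24, 0.13, 0.17 and 0.11. With the 12 h libraries alone glycolysis had 0.0163, the respiratory chain 0.0423 and NHP2L1 0.0231. The respiratory chain median ranged from −0.206 to 0.0645 when a library was left out, positive without siFBL B. The RNA methylation median was 0.0015 with upper quartile factors. With at least 1 CPM the histone median was 0.11 and that of HEK293T markers −0.30. The leukocyte marker median ranged from −0.0015, without siFBL B, to 0.65. The p53 cell death median was −0.0368 with no filter and ranged from −0.0823, without siCTRL A, to 0.109 when a library was left out.

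The replicate number in the column names was added as a block after the data were seen. The labels do not say what a number shares. The log2 ratios of replicate 1 to 2 at 12 h had correlations of 0.68 to 0.74 with those at other hours in siFBL cells. In siCTRL cells these were −0.11 to 0.02, and between the siRNAs at 12 h the correlation was 0.0137. The siFBL libraries of a number thus shared a difference over the hours, which the main model leaves out. Pairing over the hours in siCTRL cells or between the siRNAs is not shown. With the replicate block shared by both siRNAs 839 genes rose and 3127 fell at 12 h, and 11 were called, all lower, for 12 h against 0 h. With the replicate block within each siRNA that test called 194, 33 higher and 161 lower, among them PNRC2 (edgeR adjusted p = 0.000225), ATF4 (0.00385), MDM2 (0.00484) and BTG2 (0.000225), named with their values known. The median of all genes was −0.00895 with the shared block. With 2 libraries a group and unequal siFBL replicates, small differences were not detectable here. Scaled counts show shares of the RNA and not amounts per cell.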
